A study of Mus musculus with 6 samples.

Results

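The nuclear-encoded genes of oxidative phosphorylation were followed in sorted mouse CD4+CD8+ double-positive thymocytes with and without deletion of Mettl14. The 80 genes were the protein-coding rows of the authors' fold change table, 16448 genes in all, whose symbols belong to the Nduf A, B, C, S and V series, Sdha to Sdhd, the Uqcr names, Cox4 to Cox8 and the Atp5 names. By complex they were 36 genes of complex I, 4 of complex II, 8 of complex III, 15 of complex IV and 17 of complex V. The rule itself used symbols and gene type, and no fold change or p-value. That table holds only part of the 43430 genes counted, so the choice was not free of expression. Matching names outside the 80 include Cox7b2, Cox8b and Cox8c at 0 counts and Ndufa4l2 at 2. All mice were C57BL/6. The KO group (3 libraries) was Mettl14fl/fl with CD4-Cre+, so that the Cre is driven by the Cd4 promoter and acts in cells that have begun to express Cd4. The WT group (3 libraries) was labelled WT and described as littermate controls, without a statement of which floxed or Cre alleles these mice carried. The Mettl14 protein joins Mettl3 to form the enzyme that places N6-methyladenosine on RNA, and the study asked how this mark acts in the development of iNKT cells, which arise from double-positive thymocytes.

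Oxidative phosphorylation makes most of the ATP of a resting cell. Complex I takes electrons from NADH and complex II from succinate, coenzyme Q carries them to complex III, cytochrome c carries them to complex IV, and complex IV passes them to oxygen. Complexes I, III and IV pump protons across the inner mitochondrial membrane, and complex V, the ATP synthase, lets the protons back through a rotating ring to make ATP. Most subunits are encoded in the nucleus and imported, and a core set is encoded by mitochondrial DNA, so the complexes need both genomes. Thymocytes draw on mitochondrial ATP, and a change of metabolism accompanies their passage from proliferating precursors to resting double-positive cells.

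The libraries held between 29500254 and 33377056 counts in genes. Mettl14 was at 52.1, 58.8 and 55.8 CPM (read counts divided by the TMM-scaled size of each library) in the WT libraries against 42.2, 40.3 and 36.4 CPM in the KO libraries, with no overlap. Its log2 fold change was -0.49 ± 0.086 (SE), with an adjusted p of 0.289 in edgeR's quasi-likelihood test and 0.0043 in DESeq2. These counts cover the whole transcript and do not isolate the deleted part of the gene. No label states whether the 3 libraries of a group were 3 different mice, so p-values measure the spread between libraries, which may be technical. The summed level of 8 double-positive thymocyte markers ran from 15135 to 16790 CPM across WT and from 15789 to 16620 CPM across KO. B cell markers summed to at most 28.4 CPM, red cell markers to at most 0.394 CPM and 5 stromal and endothelial markers to at most 179.6 CPM, with Krt5 at 0 in all 6 libraries. Of 7 myeloid and dendritic markers the sum was 35.1 to 41.3 CPM across WT and 31.5 to 62.1 CPM across KO, and the 3 of 5 NK and gamma-delta markers found by name summed to at most 1.98 CPM. In bulk RNA, fewer cells of a type and less RNA per cell cannot be told apart.

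No oxidative phosphorylation gene passed the test of a difference between genotypes. Of the 80 genes, 78 had enough counts to be tested, and edgeR called 0 of them at an adjusted p under 0.05, where it called 0.0383% of all 13039 genes tested. At an unadjusted p under 0.05 the count was again 0 of 78, against 6.72% of all genes tested. DESeq2 called 0 of the tested genes against 0.678% of its genes, and limma-voom called 0 against 0.0537%. Both also gave 0 with an unadjusted p under 0.05. In the authors' deposited table, 0 of the 80 had an adjusted p under 0.05, against 0.762% of the genes given one, and the lowest adjusted p among them there was 0.884. The lowest edgeR p among the 78 was 0.0896, for Ndufs1, with an adjusted p of 0.764.

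The differences were small as well as not called. In KO against WT, 32 of the 78 log2 fold changes lay above 0 and 46 below, with a median of -0.012, where the median of all genes tested was -0.0040. They ran from -0.31 for Atp5l to 0.17 for Ndufs5. The median size of the log2 fold change, regardless of sign, was 0.038 for the tested genes of the 5 complexes and 0.108 for all genes tested. For 68 of 78 the 95% interval of the difference lay within 1.25-fold in both directions (87.2%, against 35.0% of all genes tested), and for 76 it lay within 1.5-fold (97.4%, against 64.1%). The exceptions at 1.5-fold were Atp5l, whose interval ran from 0.544 to 1.20 times the WT level, and Cox7a1, from 0.606 to 1.43 times. An edgeR p of 0.5 or above was held by 52 of 78 (66.7%), against 44.4% of all genes tested. The same genes varied less within groups, with a median coefficient of variation of 5.16% in WT and 4.22% in KO, against 11.4% and 8.50% over all genes tested. They also rested on more counts, with a median of 68.5 CPM against 28.3 CPM, and the part of this depth in their narrow intervals was not tested.

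**Figure D1:**
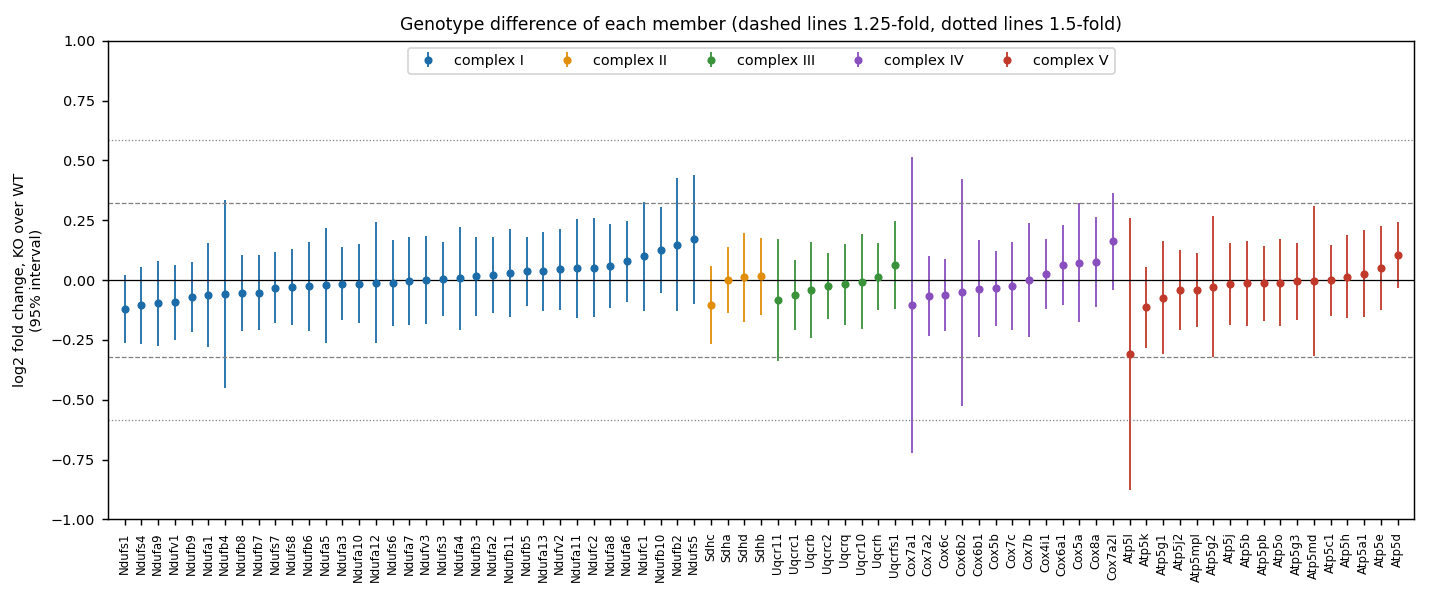
The log2 fold change, KO over WT, of 77 of the 78 tested genes (vertical axis) is drawn as a point with its 95% interval, grouped and coloured by complex and sorted within it. All 77 intervals drawn include 0, and the widest are those of Cox7a1 and Atp5l.

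**Figure D2:**
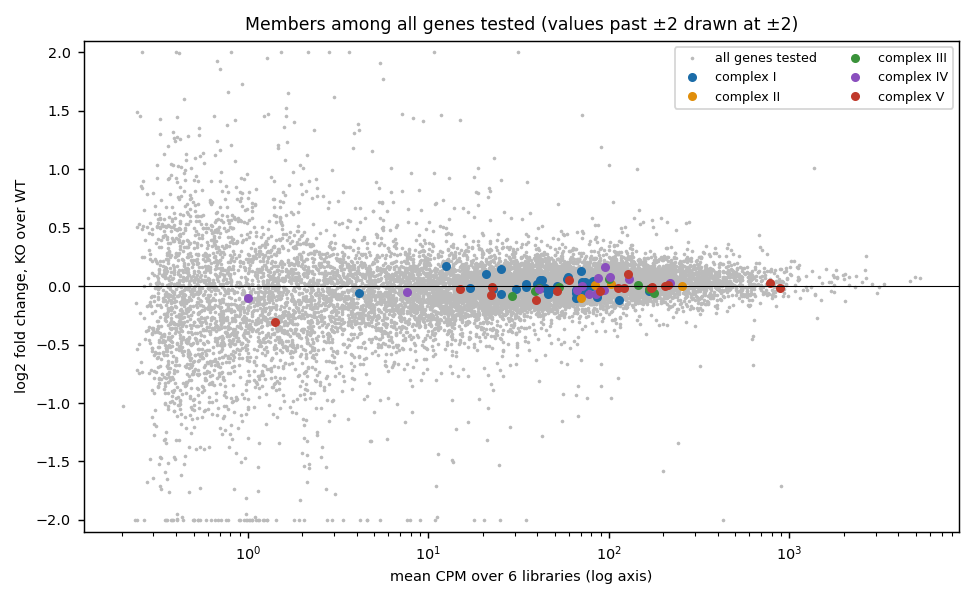
Each point is 1 of the 13039 genes tested, with mean CPM over the 6 libraries on a log axis and the log2 fold change, KO over WT, on the vertical axis; 69 genes past ±2 are drawn at the edge. The coloured genes of complexes I to V lie in a narrow band around 0, from -0.31 to 0.17.

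The summed level of each complex differed between genotypes by less than the spread between libraries. Complex I, which summed 36 genes, was at 1989, 2049 and 2022 CPM across WT and 2039, 1984 and 1997 CPM across KO, a log2 ratio of -0.0093. Complex II was at 494, 520 and 520 CPM across WT and 509.9, 494 and 521 CPM across KO. Complex III was at 734, 763 and 771 CPM across WT and 756, 719 and 767 CPM across KO. In each of these 3 complexes the groups overlapped, with KO replicate 2 the lowest library and WT replicate 1 the next. Complex IV was at 1007, 1072 and 1120 CPM across WT and 1111, 1049 and 1090 CPM across KO. Complex V was at 2905, 3109 and 3244 CPM across WT and 3115, 2951 and 3208 CPM across KO. Over all 80 genes the sum was 7439 ± 282 CPM (SD, n = 3) across WT and 7437 ± 210.3 CPM across KO. As raw counts the 80 genes held 243557, 248171 and 224732 reads in the WT libraries and 227141, 212456 and 244700 in the KO libraries, which was 0.715% to 0.762% of all counts in genes. These sums follow the abundant genes. Atp5b gave 28.7% of the complex V sum, Sdha 49.6% of complex II, Uqcrc1 23.8% of complex III and Cox4i1 20.3% of complex IV.

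**Figure D3:**
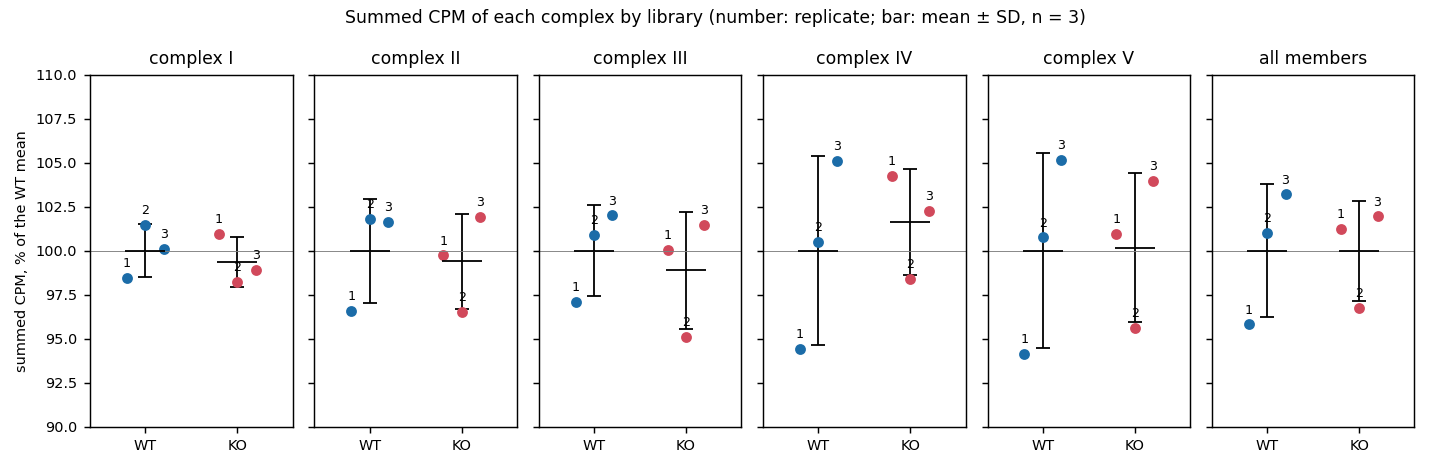
Summed CPM of complexes I to V and of all 80 genes is shown for each library as a percentage of the WT mean (vertical axis), with the replicate number over each point and bars for mean ± SD (n = 3). WT replicate 1 and KO replicate 2 are low in several panels, and the groups overlap in all 6.

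The libraries of a genotype differed from each other by more than the genotypes did. Against its own mean over the 6 libraries, the median tested gene of the 5 complexes stood at -0.043 (log2) in WT replicate 1, 0.024 in WT replicate 2 and 0.029 in WT replicate 3. The KO medians were 0.0057, -0.026 and 0.015. In WT replicate 1, 21 of 78 genes lay above their own mean, and in WT replicate 3 the count was 60 of 78. Over all 13039 genes tested the counts were 6770 and 6508. Regardless of sign, the median deviation over all genes tested was 0.150 in WT replicate 1 and 0.079 to 0.102 in the others. For the 78 genes it was 0.068 in WT replicate 1 and 0.037 to 0.050 in the others. In complex V, 2 of 17 genes lay above their mean in WT replicate 1 and 15 of 17 in WT replicate 3, with medians of -0.081 and 0.085. In complex IV the counts were 2 of 13 and 12 of 13, with medians of -0.040 and 0.064. In KO replicate 2, 0 of 4 complex II genes, 0 of 8 complex III genes and 3 of 17 complex V genes lay above their own mean. The ratio of the complex V sum to the complex I sum came to 1.46, 1.52 and 1.60 over the WT libraries and to 1.53, 1.49 and 1.61 over the KO libraries. What set these libraries apart was not tested.

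Expressed per kilobase of the main messenger RNA, which allows levels to be compared between genes, the subunits covered a wide range. The medians, as 6-library means in CPM per kilobase, were 60.6 for complex I, 77.5 for II, 94.7 for III, 128 for IV and 137 for V. Among tested genes the highest and lowest levels per kilobase in complex I were Ndufa4 at 130 and Ndufb4 at 4.28. In complex II they were Sdhb at 90.2 and Sdhc at 22.2, in complex III Uqcrh at 264 and Uqcr11 at 64.9. In complex IV they were Cox4i1 at 293 and Cox7a1 at 2.57, and in complex V Atp5b at 463 and Atp5l at 2.60. In complex V, subunits that stand in a fixed ratio in the finished enzyme were thus listed up to 178 times apart per kilobase. Atp5l, the lowest of complex V, has all 312 of its coding bases repeated in other genes. Ndufb4 has all 390 repeated, so both levels, and the ranges that rest on them, are uncertain. The order depends on the length used. With the gene length in the authors' table, the highest of complexes II to V would be Sdhd, Uqcrfs1, Cox8a and Atp5mpl, and the lowest of complexes III to V Uqcrq, Cox6b2 and Atp5g1.

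**Figure D4:**
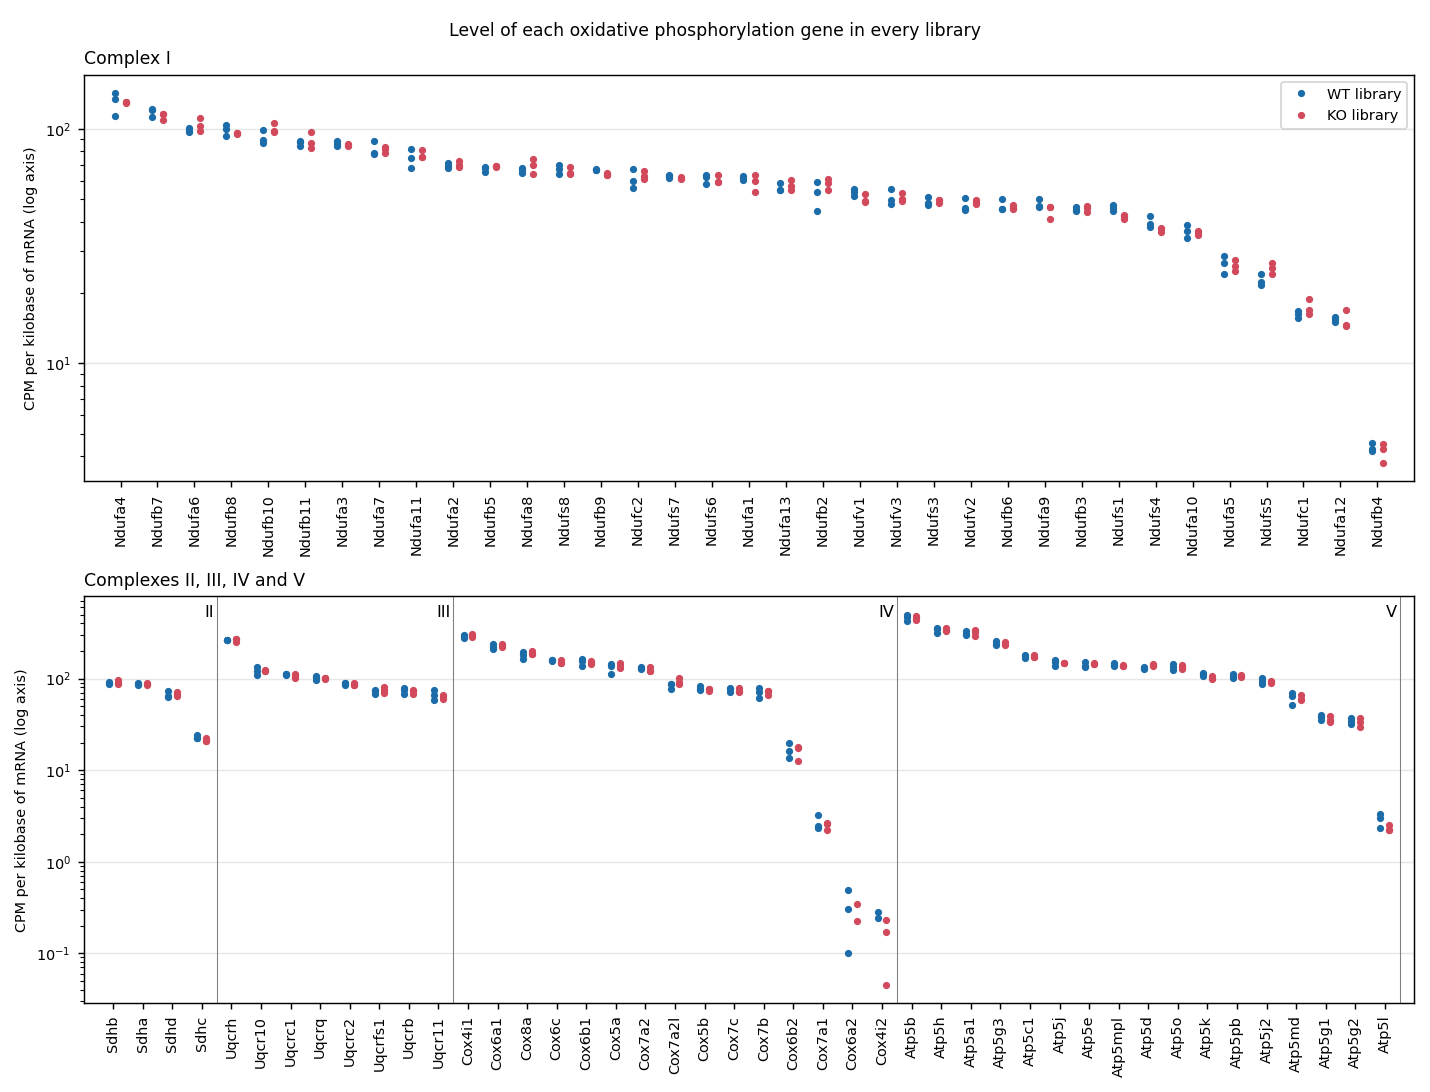
Each dot is 1 library (blue WT, red KO) and gives CPM per kilobase of messenger RNA on a log axis for 79 of the 80 genes, sorted by level within its complex; values of 0, in Cox4i2 and Cox6a2, are not drawn. Of all 80 genes, 75 lie above 10 CPM per kilobase, and Ndufb4, Cox7a1, Cox6a2, Cox4i2 and Atp5l stand far below the rest of their complexes.

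Complex I gave 17 of 36 genes above 0 and 19 below, and their median log2 fold change was -0.0075. Ndufs1 (chr1:63143596-63176833, minus strand) encodes the largest core subunit, which holds iron-sulfur clusters of the electron path. It was at 122, 119 and 115 CPM across WT and 109.7, 111 and 107 CPM across KO. Each KO library lay below each WT library, with a log2 fold change of -0.12 ± 0.061 (SE) that did not pass the test. Its exons overlap those of Eef1b2 on the opposite strand, a gene with 45089 counts over the 6 libraries, and the strand setting of the counting is not given in the sources used here. Ndufs4, an accessory subunit whose loss in mice impairs complex I assembly, was at 71.7, 64.7 and 66.8 CPM across WT and 64.1, 63.3 and 61.5 CPM across KO. The groups did not overlap, and the log2 fold change was -0.10 ± 0.070. Ndufb9, an accessory subunit of the membrane arm, was at 46.9, 47.6 and 46.9 CPM across WT and 44.7, 45.4 and 44.6 CPM across KO, again without overlap, at -0.070 ± 0.064. These were the 3 genes of the 78 in which each KO library was below each WT library, where 5.97% of all genes tested had that order. With all KO libraries above, there was 1 of 78, against 6.59% of all genes tested.

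The other core subunits of complex I that are reported here had small differences as well. Ndufv1, which binds NADH, was at 88.8 ± 3.11 CPM (SD, n = 3) across WT and at 83.2 ± 3.61 CPM across KO, with overlapping groups. The log2 fold changes were 0.045 for Ndufv2, 0.0032 for Ndufs3, -0.032 for Ndufs7 and -0.030 for Ndufs8, with standard errors between 0.064 and 0.072. Among accessory subunits, Ndufs5 had the largest value above 0. It was at 11.3, 11.6 and 12.6 CPM across WT and 13.3, 14.1 and 12.6 CPM across KO, for a log2 fold change of 0.17 ± 0.117 with overlapping groups. Ndufb10 was at 63.8, 72.1 and 65.5 CPM across WT and 77.4, 71.3 and 71.0 CPM across KO. Ndufb2 was at 20.2, 24.4 and 26.9 CPM across WT and 26.7, 27.6 and 24.9 CPM across KO, and its exons overlap those of Braf on the opposite strand. Ndufa9 had a log2 fold change of -0.097. Ndufa4 carries a complex I name, but its protein is now assigned to complex IV, and its log2 fold change was 0.0065 ± 0.092.

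Complex II, the succinate dehydrogenase, is also an enzyme of the tricarboxylic acid cycle and has no subunit from mitochondrial DNA. Sdha, the flavoprotein that oxidises succinate, was at 246, 258 and 255 CPM across WT and 250.3, 246 and 263 CPM across KO. Sdhb, the iron-sulfur subunit, was at 98.5, 106 and 103 CPM across WT and 110.0, 101 and 99.5 CPM across KO. Sdhc and Sdhd anchor the enzyme in the membrane. Sdhc was at 71.1, 76.3 and 71.2 CPM across WT and 65.5, 66.5 and 71.4 CPM across KO, for a log2 fold change of -0.10 ± 0.071, and its highest KO library stood above 2 of the WT libraries. Sdhd had a log2 fold change of 0.012 ± 0.080. The 4 genes had overlapping groups.

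In complex III, 2 of 8 genes lay above 0 and 6 below, and the groups overlapped for all 8. Uqcrfs1 encodes the Rieske iron-sulfur protein, which hands electrons to the cytochrome c1 of the complex. It was at 93.3, 99.3 and 102 CPM across WT and 111, 94.6 and 102 CPM across KO. Uqcrc1, a core subunit, was at 180.3, 184 and 184 CPM across WT and 175, 167 and 183 CPM across KO. The other core subunit, Uqcrc2, had a log2 fold change of -0.025 ± 0.060, and Uqcrh, the hinge protein, one of 0.014 ± 0.060.

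In RNA, the ubiquitous form stood above the tissue-specific versions for each complex IV subunit compared here. Cox4i1, the widely expressed subunit 4, had 41097 counts over the 6 libraries, and Cox4i2, a form known from lung, had 22. Cox6a1 had 24340 counts, and Cox6a2, the form of heart and skeletal muscle, had 32. Neither Cox4i2 nor Cox6a2 had enough counts to be tested. The muscle form Cox7a1 had 189 counts beside 15895 for Cox7a2, a ratio of 49.9 per kilobase. The testis form Cox6b2 was less far below, with Cox6b1 9.26 times higher per kilobase. Cox7b2, Cox8b and Cox8c were at 0 counts in all 6 libraries. Markers of muscle summed to 3.69 to 6.88 CPM across WT and to 1.62 to 3.93 CPM across KO. None of the tested isoforms passed the test between genotypes. Cox6b2 had a log2 fold change of -0.051 ± 0.204 and Cox7a1 one of -0.11 ± 0.267, and the 95% intervals ran from 0.695 to 1.34 times the WT level for Cox6b2 and from 0.606 to 1.43 times for Cox7a1.

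Of the other subunits of complex IV, Cox7a2l (chr17:83501919-83514333, minus strand) came nearest to a difference. Its protein is related to subunit 7a. It was at 92.8, 82.9 and 93.5 CPM across WT and 110.2, 93.3 and 97.9 CPM across KO. The lowest KO library lay below the highest WT library, and the log2 fold change was 0.16 ± 0.088, with an adjusted p of 0.767 in edgeR's quasi-likelihood test. Cox4i1 was at 208.5, 216 and 225 CPM across WT and 227, 211 and 223 CPM across KO, Cox5a had a log2 fold change of 0.073 ± 0.107, and Cox5b one of -0.034 ± 0.068. Cox8a was at 0.076 ± 0.080, Cox6a1 at 0.062 ± 0.072, Cox7a2 at -0.066 ± 0.072, Cox6b1 at -0.037 ± 0.087 and Cox7b at 0.0013 ± 0.102, all on the log2 scale. Cox7a2l is 1 of 6 tested genes of the 5 complexes on chromosome 17, of which 5 had values above 0 (median 0.047), while 27 of the other 72 did. Among those 5, Ndufv3 stood at 0.00035. One-sided counts occurred elsewhere too: chromosomes 1 and 7 each had 1 of 6 above 0 and 5 below. No share over all tested genes of chromosome 17 is given here.

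Complex V had 4 of 17 genes above 0 and 13 below, and their median log2 fold change was -0.013. The catalytic beta subunit Atp5b (chr10:128083273-128090391, plus strand, mm10) was at 825.5, 901 and 949.5 CPM across WT and 886, 839 and 925 CPM across KO. The alpha subunit Atp5a1 was at 737, 766 and 814 CPM across WT and 799, 719.9 and 840.4 CPM across KO. For Atp5b all 3 KO libraries lay between the lowest and the highest WT library, and for Atp5a1 the highest and the lowest of the 6 were both KO. The gamma subunit Atp5c1, the rotating shaft, had a log2 fold change of -0.0018 ± 0.063. Atp5d (chr10:80138632-80145818, plus strand) encodes the delta subunit of the central stalk and was the only tested gene of the 78 in which each KO library was above each WT library. It was at 126, 120.0 and 122 CPM across WT and 132, 129 and 135 CPM across KO, for a log2 fold change of 0.11 ± 0.060 that did not pass the test. Atp5k, the e subunit found where enzyme dimers meet, was at 39.4, 42.1 and 42.3 CPM across WT and 39.6, 36.9 and 37.8 CPM across KO, at -0.11 ± 0.073 with overlapping groups. Atp5l, the g subunit, had raw counts of 61, 42 and 48 in WT and 41, 36 and 39 in KO, which overlapped between groups as CPM. Its fold change on the log2 scale was -0.31 ± 0.245.

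The membrane ring of complex V is made of the c subunit, which 3 genes encode. The predicted last 75 residues were identical in all 3 gene pairs, while the 228 bases that encode them with the stop codon were identical at 85.1% between Atp5g1 and Atp5g2, 79.8% between Atp5g1 and Atp5g3 and 78.5% between Atp5g2 and Atp5g3. Atp5g3 was at 164, 169 and 184 CPM across WT and 173, 166 and 178 CPM across KO. Atp5g1 was at 22.8, 23.9 and 21.3 CPM across WT and 21.1, 23.5 and 20.1 CPM across KO, and Atp5g2 at 14.0, 16.3 and 15 CPM across WT and 13.2, 14.8 and 16.4 CPM across KO. All 3 had overlapping groups. Per kilobase, Atp5g3 stood 6.51 times above Atp5g1 and 7.13 times above Atp5g2 as 6-library means. The 3 genes differed in how much of their sequence is repeated elsewhere in the transcriptome. The last 120 bases of each coding sequence, from GENCODE M21 transcripts, are shown to make this visible, with capitals for bases that lie in a stretch of 50 bases found unchanged in a transcript of another gene.
Atp5g1, coding bases 292 to 411: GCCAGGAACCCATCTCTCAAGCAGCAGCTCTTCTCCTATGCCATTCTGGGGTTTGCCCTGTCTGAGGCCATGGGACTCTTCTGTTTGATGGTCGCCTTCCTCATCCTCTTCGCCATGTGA
Atp5g2, coding bases 322 to 441: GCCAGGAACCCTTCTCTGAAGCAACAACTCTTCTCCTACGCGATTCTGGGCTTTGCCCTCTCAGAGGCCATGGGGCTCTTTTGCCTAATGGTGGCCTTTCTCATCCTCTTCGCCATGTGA
Atp5g3, coding bases 307 to 426: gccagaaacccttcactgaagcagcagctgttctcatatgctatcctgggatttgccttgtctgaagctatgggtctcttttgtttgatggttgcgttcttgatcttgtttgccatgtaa
All 411 coding bases of Atp5g1 and all 441 of Atp5g2 were repeated in this way, and 0 of the 426 of Atp5g3. The main partner of Atp5g1 was the processed pseudogene Gm10039 and that of Atp5g2 the transcribed processed pseudogene Gm10175.

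The lowest tested genes of complexes I and V also had coding sequences repeated elsewhere. Over the whole transcript, 68.5% of the 50-base stretches of Atp5l and 37.0% of those of Ndufb4 were found in another gene. Atp5l shared stretches with 13 other genes, the most with the processed pseudogene Gm10221 on chromosome 5, and Ndufb4 with 3, the most with the processed pseudogene Ndufb4c on chromosome 15. The first 120 coding bases of both are shown with the same use of capitals.
Atp5l, coding bases 1 to 120: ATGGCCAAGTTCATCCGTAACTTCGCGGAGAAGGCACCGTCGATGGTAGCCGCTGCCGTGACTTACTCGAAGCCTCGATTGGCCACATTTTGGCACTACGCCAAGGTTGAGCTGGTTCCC
Ndufb4, coding bases 1 to 120: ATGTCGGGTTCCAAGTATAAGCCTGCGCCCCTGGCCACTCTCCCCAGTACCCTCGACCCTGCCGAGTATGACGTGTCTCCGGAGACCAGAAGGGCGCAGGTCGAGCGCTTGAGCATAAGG
All 312 coding bases of Atp5l and all 390 of Ndufb4 lay in such stretches. Atp5l held 267 counts over the 6 libraries, and the 8 of its 13 partners found by symbol in the count table held 36. Ndufb4 held 781 counts and its 3 partners 5. Reads that align to several places came to between 22.6% and 23.9% of the counted reads, and they are kept apart from the gene counts in the deposited files. The levels of these genes, and of Atp5g1 and Atp5g2, are therefore uncertain, and the part of shared sequence in them was not tested.

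Counted in stretches of 50 bases, not every gene with much shared sequence was low. Of 80 genes, 44 shared no stretch of 50 bases, 17 shared under 10% of their stretches, 14 from 10% to under 50%, and 5 shared 50% or more. The 5 were Atp5g1, Atp5g2, Atp5h, Atp5l and Cox7c. Atp5h, the d subunit of the side stalk, shared 50.5% of its stretches and stood at 340 CPM per kilobase. Its main partner was the processed pseudogene Gm10250. Cox7c shared 53.0% and stood at 75.4 CPM per kilobase. Counted in stretches of 100 bases, Atp5g2 shared 100%, Atp5l 61.3%, Atp5g1 57.3%, Cox7c 44.4%, Ndufb4 33.4% and Atp5h 32.7%. The medians of the 4 classes, from none to most shared, were 71.9, 87.8, 69.0 and 37.1 CPM per kilobase. Cox4i2, Cox6a2 and Cox7a1 were low without any shared stretch. The median log2 fold changes of the tested genes in the same classes were -0.015, 0.0013, -0.012 and -0.028. Exons of 29 of the 80 genes overlap another gene, and for 26 of these the partner with the most counts lies on the opposite strand.

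**Figure D5:**
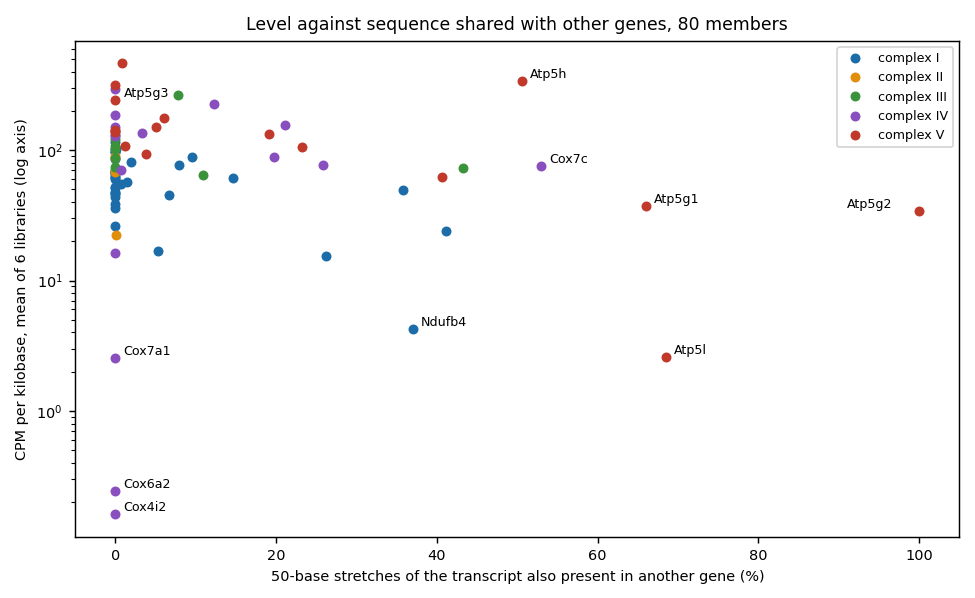
Each of the 80 genes is placed by the percentage of its 50-base stretches found in another gene (horizontal axis) and by its 6-library mean in CPM per kilobase on a log axis, coloured by complex. Atp5l and Ndufb4 are low with 68.5% and 37.0% shared, Atp5h is high with 50.5%, and Cox7a1, Cox6a2 and Cox4i2 are low with none.

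Genes of the respiratory chain are known targets of the transcription factors NRF1, GABPA (an ETS factor) and YY1, and the promoters were searched for the letters GCGCATGCG (NRF1), CCGGAAG (ETS) and AAGATGGCG (YY1) on both strands. RefSeq promoters on GRCm38.p6, from 250 bases before to 50 after the start, were found for 66 of the 80 genes and gave 71 windows. The NRF1 letters stood in 8 of them (11.3%), against 3.73% of the promoters of all genes tested and 1.75% of all promoters. The ETS letters stood in 17 (23.9%, against 18.5% and 8.86%), and the YY1 letters in 7 (9.86%, against 3.13% and 1.40%). At least 1 of the 3 was present in 38.0% of the windows, against 23.7% and 11.4%. The median GC content was 57.7% for these promoters, 60.7% for those of genes tested and 52.7% for all. The shares differed by complex. ETS letters stood in 11.8% of 34 complex I windows, 27.3% of 11 in complex IV and 33.3% of 18 in complex V. YY1 letters stood in 14.7%, 0% and 11.1% of the same windows, and NRF1 letters in 5.88%, 9.09% and 16.7%. The matches for YY1 fell at like places: in 6 of the 7 genes the letters began 22 to 35 bases after the start. Of these, 4 are printed to show the shared letters, in capitals, with their flanks, each read 5′ to 3′ on the strand of the gene, with the start of the transcript as the point of reference. Positions are on GRCm38.
Ndufa9, chr6:126849097-126849125, minus strand: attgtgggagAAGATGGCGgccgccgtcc
Ndufc1, chr3:51408915-51408943, minus strand: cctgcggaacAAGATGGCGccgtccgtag
Ndufs7, chr10:80249463-80249491, plus strand: ggccgaggccAAGATGGCGgcgctggcgg
Atp5j2, chr5:145191500-145191528, minus strand: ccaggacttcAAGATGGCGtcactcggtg
The NRF1 letters, printed for 3 genes of different complexes, lay before the start in Ndufa11 (60 bases), Atp5g2 (42 bases) and Uqcr11 (5 bases, reverse strand).
Ndufa11, chr17:56717692-56717720, plus strand: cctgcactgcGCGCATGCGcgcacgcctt
Atp5g2, chr15:102671071-102671099, minus strand: ggctccggccGCGCATGCGcagagccttc
Uqcr11, chr10:80406808-80406836, minus strand: atcgccttcaCGCATGCGCtatacgtctg
The ETS letters are shown for Sdhb, 6 bases after the start, and on the reverse strand for Uqcrh, 10 bases before it.
Sdhb, chr4:140961267-140961293, plus strand: ctcggagaaaCCGGAAGcggccttcca
Uqcrh, chr4:116075064-116075090, minus strand: gtatgccgcaCTTCCGGccaggtcgcc
A match of letters is a description of these windows and not evidence of binding. The YY1 letters contain ATG, and whether the matches lie at the start of the coding sequence was not tested. The factors themselves did not pass the test: Yy1 was at 144 ± 13.0 CPM (SD, n = 3) across WT and 156 ± 8.27 CPM across KO. Nrf1 was at 140 ± 11.7 and 139 ± 8.72 CPM, and Gabpa at 129 ± 5.45 and 134 ± 4.09 CPM. Gabpb1, the partner of GABPA, was at 96.6 ± 2.29 and 101 ± 2.52 CPM. Over 16 tested regulators of respiratory genes, 5 had log2 fold changes above 0 and 11 below, with a median of -0.015. EdgeR called 0 of the 16, against 0.0383% of all genes tested. Esrra, a nuclear receptor that acts with the coactivators of the PGC-1 family, had 0.14 ± 0.105, and Tfb1m, which methylates mitochondrial ribosomal RNA, -0.18 ± 0.195.

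The genes that build the complexes were called in neither direction. Of 17 tested assembly factors of complex I, 2 lay above 0 and 15 below, and the median log2 fold change was -0.14, where the subunits of that complex had -0.0075. The share above 0 was 11.8%, against 48.9% of all genes tested. Groups overlapped for most of the 17: each KO library was below each WT library in 2, and above in 0. Over all genes tested those orders were held by 5.97% and 6.59%. EdgeR called 0 of the 17, and 0 had an unadjusted p under 0.05. Whether these factors fell together was not tested. Ndufaf7, a methyltransferase of mitochondria, was at 14.7 ± 1.37 CPM (SD, n = 3) across WT and 12.1 ± 0.964 CPM across KO, Ndufaf3 at 27.2 ± 2.26 and 24.0 ± 0.685 CPM, Ecsit at 24.4 ± 3.60 and 21.2 ± 1.77 CPM, and Acad9 at 33.3 ± 3.89 and 29.8 ± 1.90 CPM. Of 4 assembly factors of complex II, Sdhaf2, which helps to attach the flavin to Sdha, was at 54.8 ± 1.71 CPM across WT and 61.1 ± 1.40 CPM across KO. Its log2 fold change was 0.16 ± 0.065 with an unadjusted edgeR p of 0.0428 and an adjusted p of 0.733. Sdhaf1 had a log2 fold change of -0.35 ± 0.199. For complex III, 2 of 6 factors lay above 0, with Uqcc1 at -0.22 ± 0.10 and Lyrm7, which delivers the Rieske protein, at -0.48 ± 0.273. For complex IV, 11 of 22 lay above 0 and 11 below, with Higd2a at 0.14 ± 0.075 and Pet100 at -0.22 ± 0.126, and for complex V 2 of 4 lay above 0, with the ATP synthase inhibitor Atpif1 at -0.12 ± 0.093. Each list had 0 called by edgeR, DESeq2 and limma-voom, against 0.0383%, 0.678% and 0.0537% of all genes given an adjusted p.

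Partners of the same chain also had 0 called. EdgeR called 0.0383% of all genes tested, a share at which 0 calls in a short list say little about its genes. Over all genes tested, 48.9% of log2 fold changes lay above 0. Of 16 subunits and carriers whose symbols fall outside the rule, 4 lay above 0 and 12 below, and 0 were called. They include cytochrome c and the enzymes that make coenzyme Q. Cyc1, the cytochrome c1 of complex III, was at 110 ± 2.38 CPM across WT and 104 ± 3.40 CPM across KO, and Pdss1, which makes the tail of coenzyme Q, had a log2 fold change of -0.30 ± 0.142. Of 14 enzymes of the tricarboxylic acid cycle, 5 lay above 0 and 9 below, with a median of -0.058 and 0 called. Ogdh had 0.099 ± 0.064 and Dld -0.080 ± 0.063. Dmac2l, once named Atp5s and no member under its current symbol, had 1002 counts over the 6 libraries.

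The subunits encoded by mitochondrial DNA summed to 12971 ± 363 CPM (SD, n = 3) across WT and 12907 ± 1326 CPM across KO. Their ratio to the sum of the 80 nuclear genes came to 1.88, 1.70 and 1.66 over the WT libraries and to 1.68, 1.99 and 1.55 over the KO libraries, with overlapping groups. Of the 13 subunit genes, 7 had enough counts to be tested, and 6 were listed at 0 or near 0 (mt-Nd3, mt-Nd4l, mt-Co2, mt-Co3, mt-Atp6 and mt-Atp8). These sums therefore leave out genes that every respiring cell uses. EdgeR called 0 of the 7, against 0.0383% of all genes tested, and 2 of the 7 had an unadjusted p under 0.05, against 6.72%. DESeq2 called 1, against 0.678% of its genes. mt-Nd6, a complex I subunit and the only one transcribed from the other strand of mitochondrial DNA, was at 25.2, 25.6 and 9.77 CPM across WT and 5.67, 7.55 and 8.18 CPM across KO, with each KO library below each WT library. Its log2 fold change was -1.50 ± 0.352, with an adjusted p of 0.488 in edgeR's quasi-likelihood test and 0.000836 in DESeq2. WT replicate 3, at 9.77 CPM, stood apart from the other WT libraries, and without it the edgeR adjusted p was 0.0267 at a log2 fold change of -1.82. With any other single library left out, the edgeR adjusted p ran from 0.436 (without WT replicate 1) to 0.990 (without WT replicate 2). Over all 6 libraries limma-voom gave mt-Nd6 an adjusted p of 0.626. mt-Nd5, also a complex I subunit, was at 1552 ± 40.7 CPM across WT and 1285 ± 142 CPM across KO, with a log2 fold change of -0.27 ± 0.089. Without strand, reads of mt-Nd6 and of the transcript opposite to it cannot be told apart.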

How the data were processed

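RNA was sequenced from sorted thymocytes, 3 KO and 3 WT libraries, with TruSeq kits (per the labels). The tools, per the submitters' processing notes, were Trimmomatic 0.33, STAR 2.5.2, HTSeq and DESeq2, with mm10 as the build. How HTSeq treated strand and overlaps, and with which annotation, is not given in the sources used here. The authors deposited raw read counts per gene, with gene lengths. The authors' deposited normalized signal holds the counts scaled by a size factor for each library. Their deposited table also holds log2 fold changes with standard errors, a test score (the Wald statistic) and p-values from DESeq2; the name of this file speaks of pairing, which the labels do not explain. Summary rows were left out of all totals and fits; of counted reads, 12.3% to 15.2% had no feature.

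The raw counts of all 43430 genes were fitted with edgeR 4.0.16 in R 4.3.3 (TMM, filterByExpr, quasi-likelihood test on genotype, two-sided, Benjamini-Hochberg adjustment, threshold 0.05), and member rows were read from that fit. DESeq2 1.42.0 and limma-voom (limma 3.58.1) were alternatives, with other scalings, no filter, blocks and left-out libraries. On simulated data for KO against WT over 13039 genes, edgeR called 6% of genes given a 1.25-fold change, 32% at 1.5-fold, 62% at 2-fold and 86% at 4-fold. Of its 108 calls 15 were false, and its 95% intervals held the true value in 94.9% of genes. The changed genes were drawn from all genes tested, which had fewer counts and more spread than the members. Recovery was not simulated for the members alone. Intervals are therefore given beside the counts of calls. Levels per kilobase used the shortest of the best-supported coding transcripts in GENCODE M21.

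The members, lists and tests were chosen with earlier results of these data known. Named were the highest and lowest tested gene per kilobase of each complex, the 12 lowest p-values, core subunits, alternative isoforms, genes on chromosome 17, and up to 4 genes per accessory list. Genes outside these were named after their values were seen (Ndufb9, Atp5h, Cox7c) or for the motif search. The latter were the factors Nrf1 and Gabpa, and Ndufc1 and Atp5j2, whose promoter windows were chosen for printing from the matches found. A gene that this rule names is not reported here by name; it stays in all counts and sums.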

Additional observations from a re-analysis of the deposited data

How the results depend on the processing

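Under 14 alternatives (2 other tests, 2 other scalings, no filter on low counts, 2 blocks, replicates 1 and 2 only, and each library left out), 0 members were called and 0 had an unadjusted p under 0.05 in each. The median log2 fold change of the tested members stayed between -0.041 (without WT replicate 1) and 0.013 (without WT replicate 3). Deviations of same-numbered libraries correlated at -0.149, 0.080 and 0.192. Those of differently numbered libraries ran from -0.282 (WT 3 with KO 2) to 0.181 (WT 1 with KO 2). With 3 libraries per group these values cannot decide whether replicate numbers paired the libraries. A fit with the replicate block called 0 members, with a median of -0.011. Upper-quartile scaling moved the log2 ratio of the complex I sum from -0.0093 to -0.032. Among mitochondrial DNA subunits, DESeq2 called 1 gene, mt-Nd6, and edgeR called 1 without WT replicate 3; the left-out libraries gave 0 to 1. Of 644 values of single named members, 642 moved by less than their standard error, and 2 by more, both with replicates 1 and 2 only: Ndufa11 at 0.14 and Ndufb2 at 0.29. Over 13039 genes tested, edgeR called 5, limma-voom 7 and DESeq2 81, and DESeq2 called 105 over the 15483 genes to which it gave an adjusted p. EdgeR called 30 with no filter on low counts, 6 with replicates 1 and 2 only, and 4 (without KO replicate 1) to 23 (without WT replicate 3) with 1 library left out, among them 8 without WT replicate 1 and 14 without KO replicate 2. The intervals of 10 tested members reached past 1.25-fold, from Cox7a1 at a WT mean of 1.05 CPM to Cox7a2l at 89.8 CPM, and the part of depth in their width was not tested.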
